A study of Mus musculus with 8 samples.

Results

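Matrix metalloproteinases and the tissue inhibitors that restrain them were followed across the cell clusters of a browning culture of white fat cells. The 9 genes, chosen by name, were the metalloproteinase genes Mmp2, Mmp3, Mmp11, Mmp14, Mmp19 and Mmp23 and the inhibitor genes Timp1, Timp2 and Timp3. They are 9 of the 3903 gene symbols in the deposited table of cluster markers, and they hold 65 of its 13337 entries. Of 17 further genes of the same 2 families (Mmp1a, Mmp7 to Mmp10, Mmp12, Mmp13, Mmp15 to Mmp17, Mmp20, Mmp21, Mmp24, Mmp25, Mmp27, Mmp28 and Timp4), 0 had an entry.

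Metalloproteinases are zinc-dependent enzymes that cut collagens and other proteins of the extracellular matrix. They are made as inactive precursors and are opened by other proteases, and the TIMP proteins block them by sitting in the active site. In fat, where each cell is wrapped in matrix, their balance is known to bear on how precursor cells spread, round up and store lipid.

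The cells came from inguinal white fat of C57BL/6 mice aged 8 to 12 weeks, either wild type (WT) or lacking HMGN1 and HMGN2 (Hmgn1-/- and Hmgn2-/-, DKO), a pair of proteins that bind the nucleosomes of chromatin. HMGN loss is carried by all cells of the DKO mice, and the number of mice behind each culture was not given in the sources used here. The cultures were grown on collagen-coated plates, and browning was induced with insulin, dexamethasone, IBMX, T3 and rosiglitazone for 4 days, followed by insulin and T3. Single cells were captured from 2 cultures of each genotype at day 0 and from 2 of each at day 6, which gave 8 samples in 4 groups.

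The deposited table pools the cells of all 8 samples into 12 clusters, numbered 0 to 11, so no difference between WT and DKO or between days can be read from it, and no value has a replicate. For each entry it gives the percent of cells inside the cluster, and the percent of all other cells, in which the gene was detected. An entry is a gene that passed the authors' minimums, among them those of detection and fold change, in that cluster, and a gene without an entry is not a gene at 0. All comparisons below are of these percents, as descriptions without a test, because cells are not replicates and the clusters were made from the expression of the same cells. The cells and reads behind a percent are unknown, so no counting interval is given, and the detection that free RNA alone would give could not be measured.

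Of the marker genes of the labelled cells, 5 of 10 preadipocyte genes and 10 of 10 adipocyte genes had entries, while immune, endothelial and glial genes had 0. Per the study's methods, immune, glial and endothelial cells were removed before the final clustering. Their 0 entries therefore do not describe the cultures as they were taken. Adipocyte genes were detected in more cells inside than outside, by at least 10 percentage points, in clusters 2 (5 of 5 with an entry), 4 (7 of 10), 6 (5 of 5), 8 (6 of 7) and 11 (9 of 10). In clusters 0, 1, 3, 5, 9 and 10 they were at 0 higher and 3 to 8 lower. Genes of proliferation were higher by as much in clusters 5 (7 of 7), 6 (8 of 8) and 9 (8 of 8). Clusters 4 and 10, with 9.59% and 3.22% of all cells, detected most of their listed genes poorly. The median over the entries of cluster 4 was 10.8% inside against 63.0% outside. Over those of cluster 10 it was 8.1% against 62.4%.

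Several members were frequent in clusters 1 and 3, which had low adipocyte genes, and rare in cluster 11, which had the highest. Mmp3, Mmp14, Mmp11, Timp2 and Timp3 were seen in 58.8% to 99.5% of the cells of clusters 1 and 3 that list them. In cluster 11, where the adipocyte hormone gene Adipoq was seen in 92.1% of the cells, the same genes were detected in 4.1% to 21.9%. The other clusters with low adipocyte genes shared this in part. Timp2 and Timp3 were at 98.1% and 83.6% in cluster 0 and at 98.9% and 84.8% in cluster 5. Mmp3, however, was at 45.0% against 49.6% in cluster 0. Mmp14 and Timp2 were at 15.2% and 41.2% in cluster 10, which detected most of its listed genes poorly. Mmp23 shared the pattern of clusters 1, 3 and 11, at 73.0%, 56.6% and 2.7%. Mmp2 and Timp1 departed from it in part, and Mmp19 had no entry in these clusters.

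**Figure D1:**
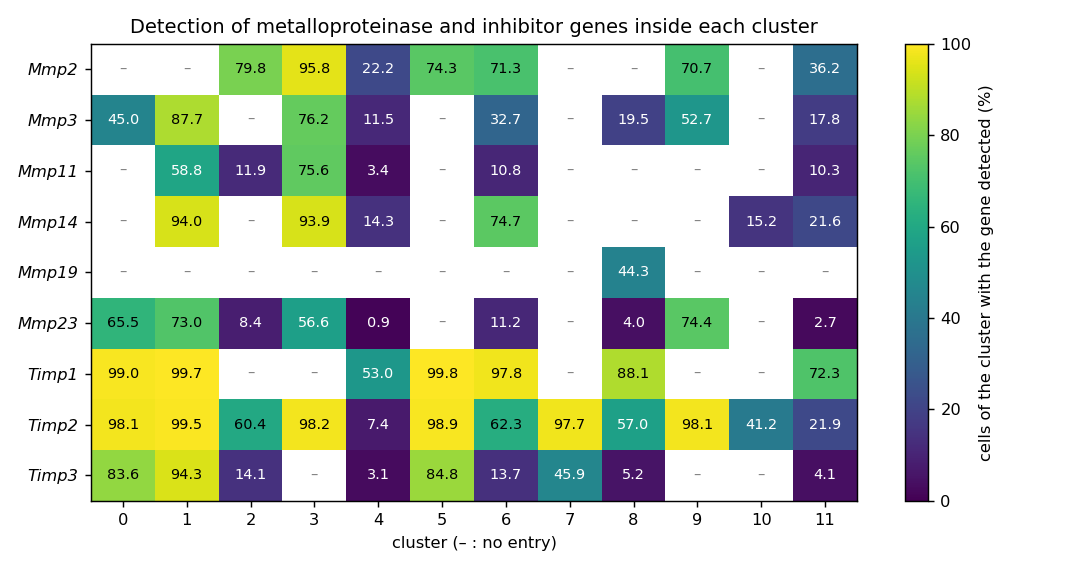
Percent of the cells of each cluster (columns, 0 to 11) in which each member (rows) was detected, from 0 (dark) to 100 (yellow), with the value in each field and a dash where the gene has no entry. Clusters 0, 1, 3, 5, 7 and 9 hold the yellow fields of Timp2, at 97.7% to 99.5%, and in clusters 4 and 11 all 8 members listed were seen in fewer cells than outside.

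Taken over all cells, the members ranged from a gene that nearly every cell showed to genes seen in a minority. Timp1 was detected in 92.1% of all cells, Mmp14 in 77.8%, Timp2 in 77.0%, Mmp2 in 70.8%, Timp3 in 50.6%, Mmp3 in 48.9%, Mmp23 in 43.1%, Mmp11 in 38.0% and Mmp19 in 26.8%. These values were solved from the entries of each gene, and those of 1 gene differed by at most 0.099 percentage points from cluster to cluster. This spread is smaller than the gap between any neighbours in the order, but it says nothing of the difference between cultures. The order is one of detection, not of transcript level between genes.

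Of the 65 entries, 22 had a detection inside the cluster at least 10 percentage points above that outside, beside 40.0% of all 13337 entries, and 31 were lower by as much, beside 37.4% of all entries. The 12 entries between differed from the cells outside by less than that. The 37 entries of the metalloproteinases parted into 13 higher and 18 lower, and the 28 of the inhibitors into 9 higher and 13 lower. The median difference was -4.6 percentage points over the members and 2.7 over all entries. Counted over all clusters, the members were not far from the table as a whole.

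**Figure D2:**
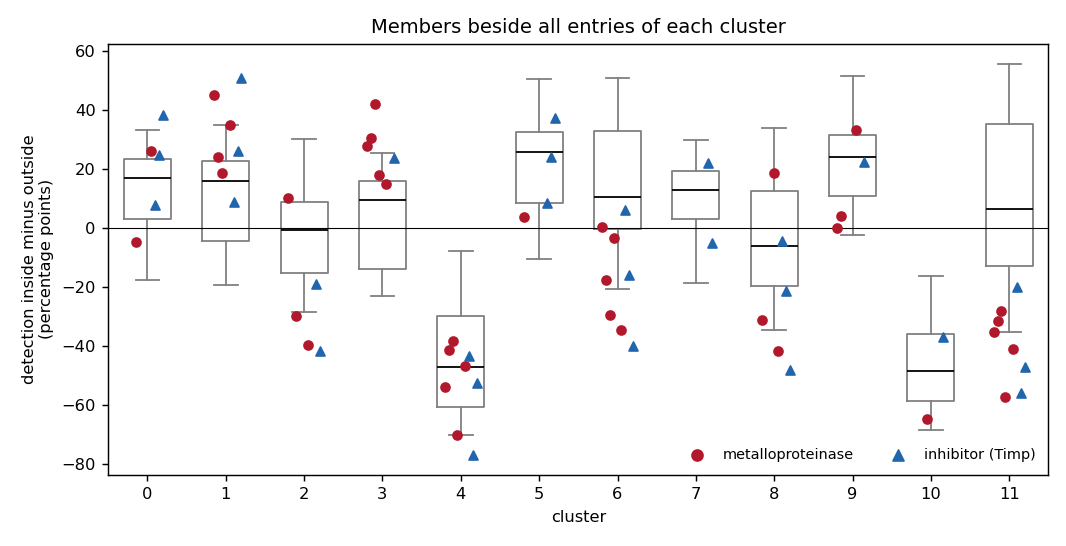
Difference of detection inside minus outside each cluster, in percentage points, for each metalloproteinase (red circles) and inhibitor (blue triangles) with an entry. Boxes outlined in grey show the quartiles and black lines the median of all entries of the cluster, with whiskers at the 5th and 95th percentiles. In cluster 11 the members lie between -57.1 and -20.1, while the median of all entries is 6.6.

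Mmp3 encodes stromelysin 1, a secreted enzyme that cuts proteoglycans, fibronectin and basement membrane proteins and also activates other metalloproteinases. Its transcripts were found in 87.7% of cluster 1 cells against 42.6% of all other cells, and in 76.2% of cluster 3 against 45.7%. Clusters 0 and 9 showed it in 45.0% and 52.7% of their cells, both within 5 percentage points of the cells outside. Clusters 6, 8, 11 and 4 were low, with 32.7%, 19.5%, 17.8% and 11.5% of their cells. The 4 clusters without an entry (2, 5, 7 and 10) averaged 45.9%. Mmp3 was thus most frequent in cluster 1. Of the 5 clusters with high adipocyte genes, the 4 that list it held its 4 lowest values. In cluster 4, however, 92.8% of all entries were lower than outside by at least 10 percentage points.

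Mmp3 (ENSMUSG00000043613.8) lies on chromosome 9 from 7445822 to 7455975, plus strand, in mm10, in a row of 10 metalloproteinase genes between 7272514 and 7699585. Of these 10 genes, only Mmp3 had an entry. Its neighbours in this row are Mmp1b, which ends at 7388047, and Mmp1a, which begins at 7464141.

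Mmp14 encodes a metalloproteinase anchored in the cell membrane, which cuts fibrillar collagen at the cell surface and activates the product of Mmp2. Inside clusters 1 and 3 it was seen in 94.0% and 93.9% of the cells, against 75.2% and 75.9% of the cells outside. In cluster 6 it was detected in 74.7% against 78.1%. Its low values were 21.6% against 78.7% (cluster 11), 15.2% against 79.9% (cluster 10) and 14.3% against 84.6% (cluster 4). The 6 clusters without an entry averaged 87.7%. Mmp14 was therefore a widely detected gene whose low values were those of clusters 4, 10 and 11.

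The stretch of 100 bases just before the RefSeq start of a gene was read for Mmp3, Mmp14 and Timp1, whose windows end before the annotated transcripts begin. They are shown because these members shared a high detection in cluster 1 and because the study asked about AP-1 sites in the chromatin of these cells. Mmp23, detected in 73.0% of cluster 1 cells, also had a window ending before its annotated start, which is not shown. That window held none of the letters searched below. Capitals mark matches on either strand to the letters of an AP-1 site, spelled TGANTCA. They also mark those of a TATA box, which were searched as TATAAA. The letters of a GC box were searched in the same way as GGGCGG. The 2 GC box matches of Mmp14 abut each other, and all windows are GRCm38.p6, written 5′ to 3′ along the gene's strand.
Mmp3 (chr9:7445722-7445821, plus strand): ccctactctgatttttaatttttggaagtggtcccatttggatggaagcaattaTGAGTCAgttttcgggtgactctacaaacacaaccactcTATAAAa
Mmp14 (chr14:54431498-54431597, plus strand): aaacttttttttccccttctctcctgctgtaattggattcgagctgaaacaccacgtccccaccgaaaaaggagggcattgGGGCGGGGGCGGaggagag
Timp1 (chrX:20870066-20870165, plus strand): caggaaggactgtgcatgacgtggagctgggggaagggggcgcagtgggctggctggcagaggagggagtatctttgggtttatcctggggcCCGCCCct

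In the Mmp3 window the AP-1 letters begin 46 bases before the start. Over the 250 bases before the start, 7 of the 9 members could be matched to a RefSeq promoter, and Mmp3 alone of these 7 held the AP-1 letters and the TATA letters. Among all 32851 promoters of that length, 6.75% held the AP-1 letters, 12.4% the TATA letters and 32.7% the GC letters. The GC letters were held by 5 of the 7, Mmp11, Mmp14, Timp1, Timp2 and Timp3. A match describes the letters only.

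Mmp2 encodes gelatinase A, which digests denatured collagen and basement membrane collagen. It peaked in cluster 3, where 95.8% of the cells showed it against 67.9% of the cells outside. In cluster 2 it was detected in 79.8% against 69.6%, and of the 5 members listed there it was the only one with the higher value inside, by 10.2 percentage points. In the 3 clusters with high proliferation genes its detection was level, at 74.3% in cluster 5, 71.3% in cluster 6 and 70.7% in cluster 9. Only 36.2% of cluster 11 and 22.2% of cluster 4 showed it, against 71.3% and 76.0% outside, and the 5 clusters without an entry averaged 73.6%. Mmp2 is on chromosome 8, from 92827291 to 92853420, plus strand.

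Mmp11 encodes stromelysin 3, a secreted enzyme that is already active when it leaves the cell. Like Mmp2 it peaked in cluster 3, with 75.6% of the cells against 33.6% outside, and cluster 1 followed with 58.8% against 34.6%. Clusters 2, 6 and 11 showed it in 11.9%, 10.8% and 10.3% of their cells, and cluster 4 in 3.4%. Clusters 2 and 3 thus differed widely for Mmp11 and only modestly for Mmp2. The 6 clusters without an entry averaged 42.7%.

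Mmp23 encodes a small membrane-bound metalloproteinase that is released when it is cut. Cells with Mmp23 made up 74.4% of cluster 9, 73.0% of cluster 1, 65.5% of cluster 0 and 56.6% of cluster 3, all higher than outside by 15.1 to 34.8 percentage points. In clusters 6, 2, 8, 11 and 4 it was detected in 11.2%, 8.4%, 4.0%, 2.7% and 0.9% of the cells. The value of 0.9%, in cluster 4, was the lowest of any member. Mmp23 therefore had no entry between 11.2% and 56.6%.

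Mmp19, which encodes a secreted enzyme of broad action on basement membrane proteins, had a single entry. In cluster 8, 44.3% of the cells showed it against 25.7% of all others. Clusters 0 to 7 and 9 to 11, without an entry, averaged 25.7%. Cluster 8 is among the clusters with high adipocyte genes, and of the 6 members listed there Mmp19 alone was detected in more cells than outside. Mmp19 is a member only through this entry, so its contrast with the others was in part set by how genes were listed.

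**Figure D3:**
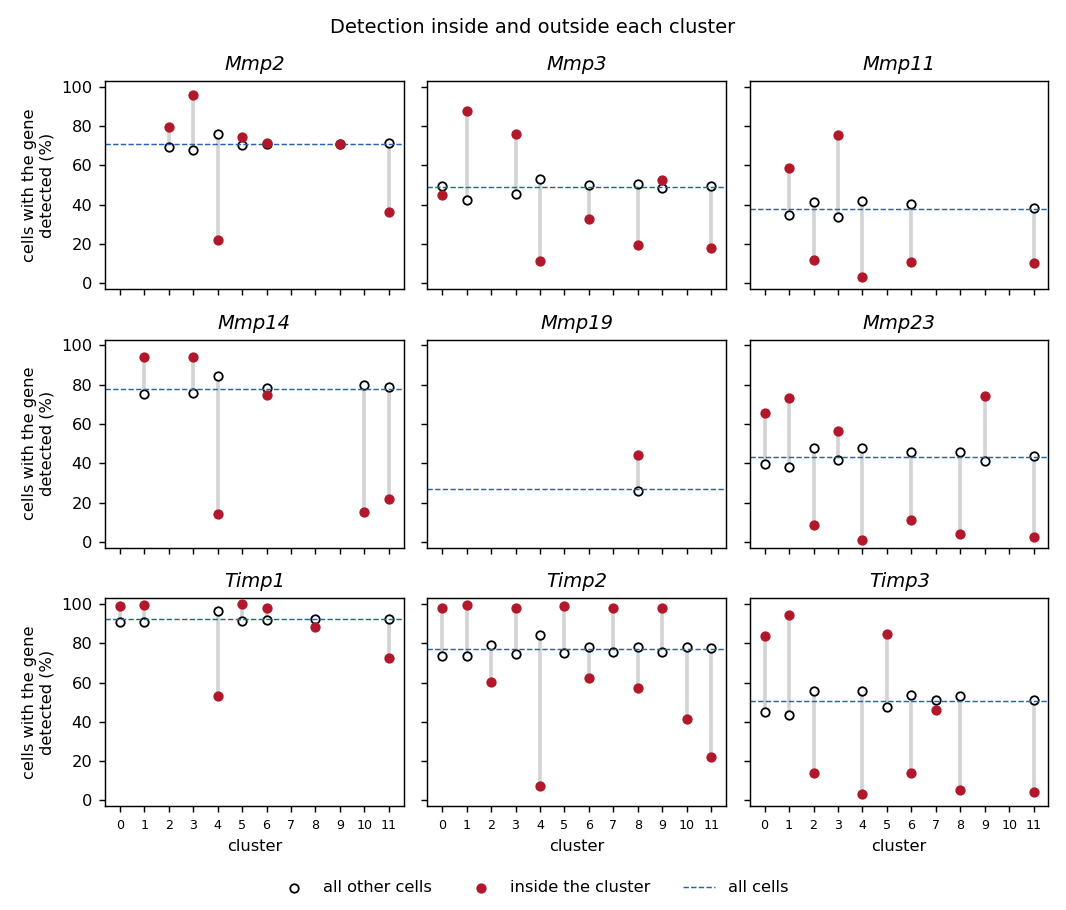
Percent of cells with each member detected inside a cluster (red points) and in all other cells (open points), with a grey bar joining them and the value over all cells as a dashed blue line. Clusters without a point have no entry, and Timp2 (7.4% to 99.5%) and Timp3 (3.1% to 94.3%) span the widest ranges.

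The 3 inhibitors differed in how widely they were detected. Timp1, which blocks most secreted metalloproteinases, was broad. It was detected in 99.8% of cluster 5 cells, 99.7% of cluster 1, 99.0% of cluster 0 and 97.8% of cluster 6, so that differences of 6.1 to 8.8 percentage points were close to the most that the cells outside allowed. It was still seen in 88.1% of cluster 8 and 72.3% of cluster 11, and in 53.0% of cluster 4. The 5 clusters without an entry averaged 95.3%. Of the 8 members listed in cluster 11, only Timp1 was seen in most of its cells.

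Timp2, which blocks metalloproteinases and also takes part in the activation of the Mmp2 product at the cell surface, was the only member with an entry in all 12 clusters. It was detected in 99.5% of cluster 1 cells, 98.9% of cluster 5, 98.2% of cluster 3, 98.1% of clusters 0 and 9 and 97.7% of cluster 7. A middle group followed, with 62.3% in cluster 6, 60.4% in cluster 2 and 57.0% in cluster 8. Cluster 10 had 41.2%, cluster 11 had 21.9% and cluster 4 had 7.4%.

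Timp3, whose product binds to the matrix and also blocks enzymes of the ADAM and ADAMTS families, was frequent in some clusters and rare in others. In cluster 1, 94.3% of the cells showed it against 43.4% outside, which at 50.9 percentage points was the largest excess of any member entry. Clusters 5 and 0 had 84.8% and 83.6%, and cluster 7 had 45.9%. In clusters 2, 6, 8, 11 and 4 it was detected in 14.1%, 13.7%, 5.2%, 4.1% and 3.1%. The 3 clusters without an entry (3, 9 and 10) averaged 58.4%.

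Mmp23, Timp2 and Timp3 have entries in all 5 clusters with high adipocyte genes, so their detection could be pooled by the share of cells. This grouping was made after the values had been seen. Over clusters 2, 6, 8 and 11, with 27.0% of all cells, Mmp23 was detected in 7.89%, Timp3 in 11.5% and Timp2 in 58.0%. Over the 7 clusters other than these and cluster 4, with 63.3% of the cells, the values were 64.5%, 74.4% and 95.6%. Acta2 and Tagln, the 2 of 6 smooth muscle and pericyte genes with entries (Myh11, Rgs5, Cspg4 and Mcam had none), were parted in the same way. They were detected in 81.4% to 98.4% of the cells of clusters 0, 1, 3, 5, 7 and 9 where they had an entry, and in 4.0% to 23.2% of clusters 2, 4, 6, 8 and 11. Their part in the members' pattern was not tested.

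Read cluster by cluster, the counts of the members were farthest from those of all entries in clusters 3, 6 and 11. In cluster 3 all 6 members with an entry were detected in more cells by at least 10 percentage points, beside 48.7% of all entries there. In cluster 1 this held for 6 of 7, beside 58.8%, with the exception of Timp1, which 90.9% of the cells outside showed. In cluster 0 it held for 3 of 5, beside 66.0%, which is near the share of all entries. The median difference of the members was 25.8 percentage points in cluster 3 and 26.2 in cluster 1, where the medians of all entries were 9.4 and 16.0. Preadipocyte genes moved with the members there too, with a median of 20.9 over 2 genes in cluster 3 and 26.7 over 3 genes in cluster 1, all higher by at least 10 percentage points, and their part in the members' pattern was not tested. In clusters 5 and 9 the count of members was 2 of 4 each, below the 72.1% and 76.9% of all entries, and in cluster 7 it was 1 of 2, beside 59.8%.

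On the low side, all 8 members with an entry in cluster 11 were detected in fewer cells by at least 10 percentage points, beside 28.7% of all entries. The cluster held only 1.5% of all cells. Its median difference was -38.1 percentage points for the members and 6.6 for all entries, so most of the table did not share the low detection of the members there. Preadipocyte genes did, with 4 of 5 lower by at least 10 percentage points and a median difference of -38.7. Pdgfrb, a receptor gene of stromal cells, was detected in 12.4% against 65.0% and Pdgfra in 21.9% against 65.0%. The preadipocyte gene Itgb1 was level, at 87.8% against 86.6%. In cluster 6, 5 of 8 members were lower by at least 10 percentage points, beside 14.9% of all entries. In cluster 2 this held for 4 of 5, beside 34.5%, and in cluster 8 for 4 of 6, beside 45.6%. In cluster 4 it held for 8 of 8, beside 92.8% of all entries, and in cluster 10 for 2 of 2, beside 98.5%. The low values there were those of nearly every entry listed in these clusters.

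The 3 clusters with high proliferation genes parted over the members. Timp3 was detected in 84.8% of cluster 5 cells and in 13.7% of cluster 6. Mmp23 was detected in 74.4% of cluster 9 and in 11.2% of cluster 6. Timp2 was at 98.9% and 98.1% in clusters 5 and 9 and at 62.3% in cluster 6, while Timp1 was at 99.8% in cluster 5 and 97.8% in cluster 6. Cluster 6 differs from the others in its adipocyte genes, with 5 higher and 0 lower by 10 percentage points, against 0 higher in clusters 5 and 9.

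**Figure D4:**
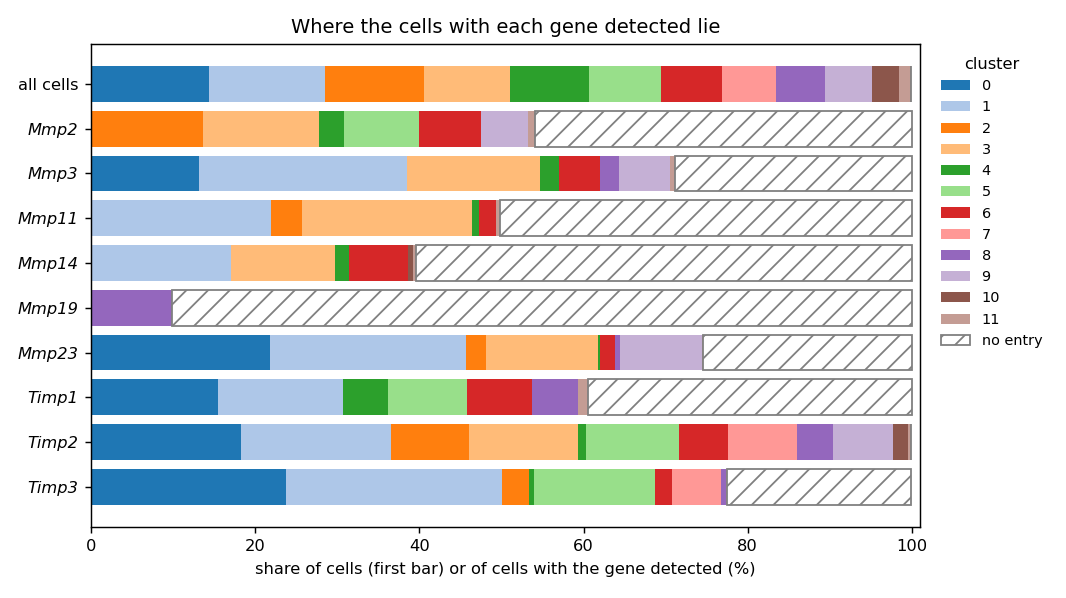
Share of the cells with each gene detected that lie in each cluster (colours), in percent, with the clusters' shares of all cells in the first bar and clusters without an entry pooled in the hatched field. Cluster 1, with 14.1% of all cells, holds 25.3% of the cells with Mmp3 and 26.4% of those with Timp3.

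Weighted by cluster size, clusters 1 and 3 held more of the cells with the listed members than their size alone would give, and other clusters did so for some members. Cluster 1 held 14.1% of all cells but 26.4% of the cells with Timp3, 25.3% of those with Mmp3, 23.9% of those with Mmp23 and 21.9% of those with Mmp11. Cluster 3, with 10.4% of all cells, held 20.7% of the cells with Mmp11, 16.2% of those with Mmp3 and 14.1% of those with Mmp2. Cluster 2 held 12.1% of all cells and 13.7% of the cells with Mmp2, but 3.80% of those with Mmp11, 3.38% of those with Timp3 and 2.36% of those with Mmp23. Of the cells with Timp1, 15.4% lay in cluster 0 and 15.3% in cluster 1, near the sizes of these clusters, while cluster 4 held 5.52% of them and 9.59% of all cells.

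The members were compared in pairs across the clusters that list both genes. On the logit of detection, Pearson's r was 0.983 for Mmp23 and Timp2 over 9 clusters, 0.978 for Mmp23 and Timp3 over 7, and 0.960 for Timp2 and Timp3 over 9. For Mmp3 it was 0.927 with Timp3 over 6 clusters and 0.921 with Timp2 over 8. The lowest of the 15 pairs with at least 6 shared clusters were Mmp2 with Timp2, at 0.764 over 7, and Mmp2 with Mmp23, at 0.766 over 6. Mmp19, with 1 entry, is in no pair. In cluster 2, Mmp2 was higher inside while Timp2 and Timp3 were lower. These points share cells, depth and the low detection of cluster 4, so r is a description only.

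By the same measure the genes most like Mmp3, of 439 compared, were Adamts5, which encodes an aggrecan-cutting enzyme, Clic1 and Tubb3, with r of 0.994 to 0.995 over 6 clusters. Those most like Timp2 were F3, the tissue factor gene, Serpinf1 and Mfap5, at 0.989 to 0.994 over 10 or 11 clusters. Timp3 was most like Anxa3, Mfap4 and Mfap5 (0.992 to 0.997 over 7 or 8), and Mfap4 and Mfap5 encode microfibril proteins. Mmp23 was most like the fibroblast marker Thy1, Ltbp2 and Cyba (0.995 to 0.996 over 8 or 9). Timp1 was most like Ccl2, Col5a2 and Fzd2 (0.991 to 0.998 over 6), and Mmp14 was most like Rcn3, Dcn and Ccl2 (0.982 to 0.989 over 6). Mmp11 was most like Ccl8, Postn and Cd9 (0.970 to 0.988 over 6). Mmp2 had the weakest likenesses, with Gpx3, the cathepsin gene Ctsk and Tnfaip2 at 0.911 to 0.934 over 6.

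The other genes of the pathway were read from lists. Of 23 ADAM and ADAMTS genes, 11 had entries, and 14 of their 33 entries were higher and 15 lower by at least 10 percentage points, near the shares of all entries. Adamts5 was detected in 92.9% of cluster 1 cells and 78.4% of cluster 3, but in 11.2% of cluster 11. Adamts2, which trims procollagen, was detected in 92.5%, 83.0% and 16.4% of the same clusters. Both followed the order of Mmp3 in these 3 clusters. Other genes of the list, named after their values were seen, were frequent in other clusters. Adam12 was detected in 86.4% of cluster 6 against 51.2%, and Adamts15 in 61.7% and Adamts12 in 51.4% of cluster 8 against 18.1% and 26.5%. Clusters 2, 6 and 8 held 7 of the 14 higher entries.

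Among 11 genes of plasmin and the convertases that activate metalloproteinases, 7 had entries. Of their 33 entries, 13 were higher and 16 lower, beside 40.0% and 37.4% of all entries. Pcsk5, a convertase gene, was detected in 83.3% of cluster 1 against 40.6% outside. Htra1, a secreted serine protease gene, was detected in 63.5% of cluster 3 against 40.3%. Serpine2, a serine protease inhibitor gene, was detected in 28.3% of cluster 1 against 55.8% and in 75.1% of cluster 3 against 49.3%, so clusters 1 and 3 lay on opposite sides for it.

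Of 14 genes of other inhibitors, partners and clearance, 10 had entries. These 68 entries held 25 higher and 32 lower, beside 40.0% and 37.4% of all entries. A2m, which encodes a secreted trap for proteases of many kinds, had its high values in clusters where Timp3 was rare. A2m was found in 82.4% of cluster 2 cells, 78.5% of cluster 6 and 46.0% of cluster 11, but in 0.7% of cluster 1 and 1.0% of cluster 3. Timp3 was detected in 14.1%, 13.7% and 4.1% of clusters 2, 6 and 11. Timp1, by contrast, was detected in 97.8% of cluster 6, and in cluster 10 both A2m (0.4%) and Timp2 (41.2%) were lower than outside. Cd44, a hyaluronan receptor gene, was detected in 71.1% of cluster 1 against 48.9%, and the caveola gene Cav1 in 21.4% of cluster 3 against 49.0%.

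Of 24 genes of matrix proteins that metalloproteinases cut, 22 had entries. Their 164 entries held 36 higher and 48 lower, beside 40.0% and 37.4% of all entries, and 30 of the 48 lower entries were in clusters 4 and 10. Col1a1 was detected in 91.9% of cluster 11 cells against 96.2% outside, Col1a2 in 78.1% against 94.7% and Col3a1 in 98.2% against 98.6%. In the same cluster Mmp14 was at 21.6% and Timp2 at 21.9%. Postn was detected in 96.3% of cluster 1 and 97.8% of cluster 3, against 77.4% and 78.0% outside, and Fbn1 in 97.8% of cluster 1 against 79.5%. Other matrix genes were rare in cluster 11 as most members were, with Fbn1 at 30.0% against 82.9%, Postn at 46.2% against 80.6% and Tnc, named after its values were seen, at 19.2% against 58.1%. In all, 9 of the 19 matrix genes listed there, Col1a2 among them, were lower by at least 10 percentage points and 4 were higher. The higher ones, Lamb1, Vcan, Col4a2 and Nid1, were named after their values were seen. Of all entries of cluster 11, 28.7% were lower and 44.4% higher by as much. Nid2, a basement membrane gene, was detected in 9.9% of cluster 3 against 35.6%. Detection near 100% hides differences in level, which these percents do not show.

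For the AP-1 factors, 6 of 7 genes had entries, with 12 higher and 9 lower of 31, beside 40.0% and 37.4% of all entries. All 4 AP-1 genes listed in cluster 1, and all 4 in cluster 7, were higher there by at least 10 percentage points, beside 58.8% and 59.8% of all entries. Fos was detected in 94.2% of cluster 1 against 63.8%, and Fosb in 66.3% against 41.4%. In cluster 3 Fos was at 80.7% against 66.6% and Jund at 91.2% against 78.4%. In cluster 11, where Mmp3 was at 17.8% against 49.4%, Fos was level, at 68.9% against 68.0%, and Fosl2, named after its values were seen, was at 27.7% against 54.5%.

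Some members overlap other genes, which matters where reads cannot be told apart. Timp3 (chromosome 10, 86300372 to 86349506, plus strand) overlaps Syn3 on the minus strand, and Timp1 (chromosome X, 20870166 to 20874735, plus strand) overlaps Syn1 on the minus strand. Timp2 (chromosome 11, 118301069 to 118355740, minus strand) overlaps Cep295nl on its own strand. Mmp11 (chromosome 10, 75923222 to 75936496, minus strand) overlaps Chchd10 on the plus strand, and Mmp19 (chromosome 10, 128790910 to 128800824, plus strand) overlaps Tmem198b and Gm47093 on the minus strand. Mmp14 (chromosome 14, 54431612 to 54445364, plus strand), Mmp23 (chromosome 4, 155650655 to 155653384, minus strand), Mmp2 and Mmp3 overlap no other annotated gene, and all 9 members are protein-coding. Whether counting used strand was not given in the sources used here. Of the overlapping genes, Syn1, Cep295nl, Tmem198b and Gm47093 had 0 entries. Chchd10 had 9, and in clusters 2 and 11, where Mmp11 was at 11.9% and 10.3%, it was detected in 88.5% and 98.7%, while in cluster 3, where Mmp11 was at 75.6%, it was detected in 91.4% against 80.2%.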

How the data were processed

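The values are those of 1 table of cluster markers. Per the labels and the study's methods, the authors mapped reads to mm10 with Cell Ranger 6.0.0 and aggregated the captures with read depth equalized. In Seurat they filtered, log-normalized and clustered the cells, and removed immune, glial and endothelial cells before clustering again. Each cluster was compared with all other cells with MAST. The removal of doublets is not described in the sources used here. The authors deposited 2 detection fractions per entry, rounded to 3 decimals, which were used here as percents. Their log2 fold changes, p-values and adjusted p-values are the study's own comparison and were not used. Columns of per-sample values left unused numbered 0.

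Cluster shares were solved by least squares from the 10 genes listed in every cluster, Timp2 among them, since the share-weighted mean of the 2 fractions must equal detection over all cells from any cluster. The solver recovered known shares on test data. Gene symbols turned into dates (7, in 35 entries) were left out of the shares. Differences of at least 10 percentage points were counted. For likeness, the 3 genes with the highest Pearson's r on the logit of detection over at least 6 shared clusters, and at least 3 in 4 of the member's own, were named for each member with at least 6 entries. From each pathway list, the 2 genes with the largest difference in clusters 1 and 3 were named, beside A2m, Col1a1, Col1a2 and Col3a1, with further values of the same genes, and 1 gene of the rule is not reported here. Adipoq, Pdgfra, Pdgfrb, Itgb1, Chchd10, Acta2 and Tagln, other genes so marked, and the pooling of clusters, were chosen after the values had been seen. The members and lists were chosen with earlier results of these data known. Positions are from GENCODE M21 (GRCm38, the same assembly as mm10) and promoters from RefSeq. Tables were handled in pandas 2.3.3, shares solved in scipy 1.17.1 with numpy 2.4.6 and plots drawn in matplotlib 3.10.9, under Python 3.11.15.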

Additional observations from a re-analysis of the deposited data

How the results depend on the processing

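No paired analysis was possible because the deposited percents pool all samples and were put to no test. A minimum of 5 or 20 percentage points, the ratio of -ln(1 - fraction) or leaving out clusters 4 and 10 (added after seeing the data) kept the member entries within 1.5 times, at 17 to 26 higher and 21 to 32 lower. At 20 percentage points fewer pathway entries remained by construction, with 8 higher and 10 lower for plasmin and convertases, 15 higher for other inhibitors and partners, 15 higher for matrix substrates and 3 higher for AP-1, and at 5 percentage points matrix substrates had 61 higher. By the difference of detection, Mmp23 and Timp1 moved to cluster 1, and by the ratio Mmp23 did. Other sets of genes for the shares left detection over all cells within 0.1 percentage points for all 9 members. Leaving clusters 4 and 10 out of the shares of detecting cells could be done for Mmp14 and Timp2 alone, which have entries in both, and gave 17.5% and 18.8% in cluster 1. Depth per cell is unknown, so its part in detection was not tested.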

Other observations

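Syn3, which encodes a synaptic vesicle protein and overlaps Timp3 on the opposite strand, had a single entry in the table. Cluster 1 showed it in 35.5% of its cells against 9.1% elsewhere, and is the cluster where Timp3 had its highest detection, 94.3%. Syn3 was singled out after its values had been seen, and whether reads of Timp3 took part in this value was not tested. Mmp2 had entries in clusters 6 and 9 although its detection there was level with that outside, at 71.3% against 70.8% and 70.7% against 70.8%. Entries also rest on the authors' minimum of fold change, a difference in level that these percents do not show.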
